A study of Rattus norvegicus with 6 samples.

Results

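Wnt proteins are secreted signals that pattern skin and limb, and the 64 genes described here encode their pathway's ligands, receptors, antagonists and feedback targets, out of 18166 genes measured. They were chosen by gene symbol and not by a cut on their values, but with earlier results of these data known. The symbols were those of the numbered Wnt, Fzd, Sfrp, Dkk and Rspo genes, Lgr4 to Lgr6, and 22 further genes listed by name. Of these 22 genes 21 were measured. Fzd3 and Znrf3 had no probe set with a single gene symbol and were not analysed here. RNA was measured on 6 expression arrays from wild-type Sprague-Dawley rats, 1 array for each of 3 isolates of SKPs and 3 isolates of NSCPs. SKPs are skin-derived precursors from the back skin of newborn pups, grown as spheres. The SKP medium held B27 at 2%, EGF at 20 ng/ml and FGF2 at 40 ng/ml. NSCPs are Schwann cell precursors from the sciatic nerve of newborn pups, grown on laminin and poly-D-lysine. Their medium held forskolin at 5 μM, neuregulin-1β at 25 ng/ml and 2% N2. The design text calls the isolates independent, and the labels do not say whether pups were pooled. Tissue of origin, medium and growth form changed together between the groups and cannot be told apart.

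As background, a Wnt protein receives a lipid from the enzyme Porcn, is carried to the cell surface by Wls, and binds a Frizzled receptor together with Lrp5 or Lrp6. β-catenin is then spared from destruction and acts in the nucleus with Tcf and Lef factors, which switch on feedback genes such as Axin2 and Nkd1. R-spondins, through the Lgr receptors, protect Frizzled receptors from being cleared from the membrane, whereas a separate branch through Ror1, Ror2 and Ryk does not need β-catenin. Wnt signals shape the dermis and its hair follicles, and those of the nail epithelium are known to be needed for digit tip regrowth, the subject named in the series title.

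The labels were checked first against markers of the cell types. All 10 measured Schwann lineage markers, such as Sox10 and Erbb3, were higher in NSCPs, where their mean on an array was 10.58 to 10.74 on the log2 scale against 6.83 to 7.0 in SKPs; all 10 were above the background level defined below on the SKP arrays as well. All 11 dermal mesenchyme markers, such as Pdgfra and Lum, were lower in NSCPs, with array means of 6.58 to 6.95 against 11.75 to 11.84, and 6 or 7 of the 11 were above background on an NSCP array. Markers of other cells moved with the groups as well. The 12 macrophage and leukocyte markers were all lower in NSCPs, with array means of 5.05 to 5.19 in NSCPs and of 11.20, 10.19 and 10.53 in SKP replicates 1, 2 and 3, and so were all 6 adipocyte markers (5.14 to 5.56 against 8.54 to 9.21). On an NSCP array 5 or 6 of the 12 macrophage markers were above background, and on an SKP array all 12. Keratinocyte markers passed the test in 1 of 5 members and endothelial markers in 1 of 4, both higher in NSCPs. The keratinocyte marker was Cdh1, while Krt10, Krt14, Krt15 and Tp63 were not called. The endothelial marker was Emcn, and no endothelial marker was above background on any array. Melanocyte markers had 2 of 6 higher and 2 lower, perineurial markers 1 of 4 higher and 2 lower, and markers of pericytes and smooth muscle 2 of 5 lower. How far these other cells bear on the differences below was not tested, and in such bulk samples fewer cells of a type and less RNA per cell cannot be told apart.

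Wnt pathway genes were called lower in NSCPs (28) more often than higher (10). All 5 co-receptors and other Wnt receptors (Ryk not in every setting tried), both genes of ligand release and 3 of 4 R-spondins were lower, while the R-spondin receptors Lgr4 and Lgr5, the receptor Fzd8 and the feedback gene Nkd1 were higher. A gene is called higher or lower when its adjusted p was under 0.05 in limma's moderated test over all 18166 genes, with Benjamini-Hochberg adjustment. All differences below are log2 values of NSCPs minus those of SKPs, and SE is their fitted standard error. Of the 64 genes 38 were called (59.4%), against 43.7% of all genes. The 28 called lower were 43.8% of the members against 18.6% of all genes, and the 10 called higher were 15.6% against 25.2%. At least 2-fold differences were called for 19 lower and 7 higher members (29.7% and 10.9%), against 9.98% and 7.45% of all genes. The median difference was -0.17 over the members and 0.14 over all genes, and the median size of a difference was 0.68 and 0.36. The groups did not overlap in 43 of the 64 members (67.2%), against 56.6% of all genes. Olfactory and vomeronasal receptor genes, 225 in all, served to set an empirical background of 5.32, the 95th percentile of their means. Both group means were within it for 8 members and at least 1 was above it for 56. Of those 56 members 66.1% were called, against 54.3% of the 13223 genes above it in a group. Called lower were 50% against 24.5%, and called higher 16.1% against 29.8%. The groups did not overlap in 75% of the 56, against 67.1% of the 13223.

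**Figure D1:**
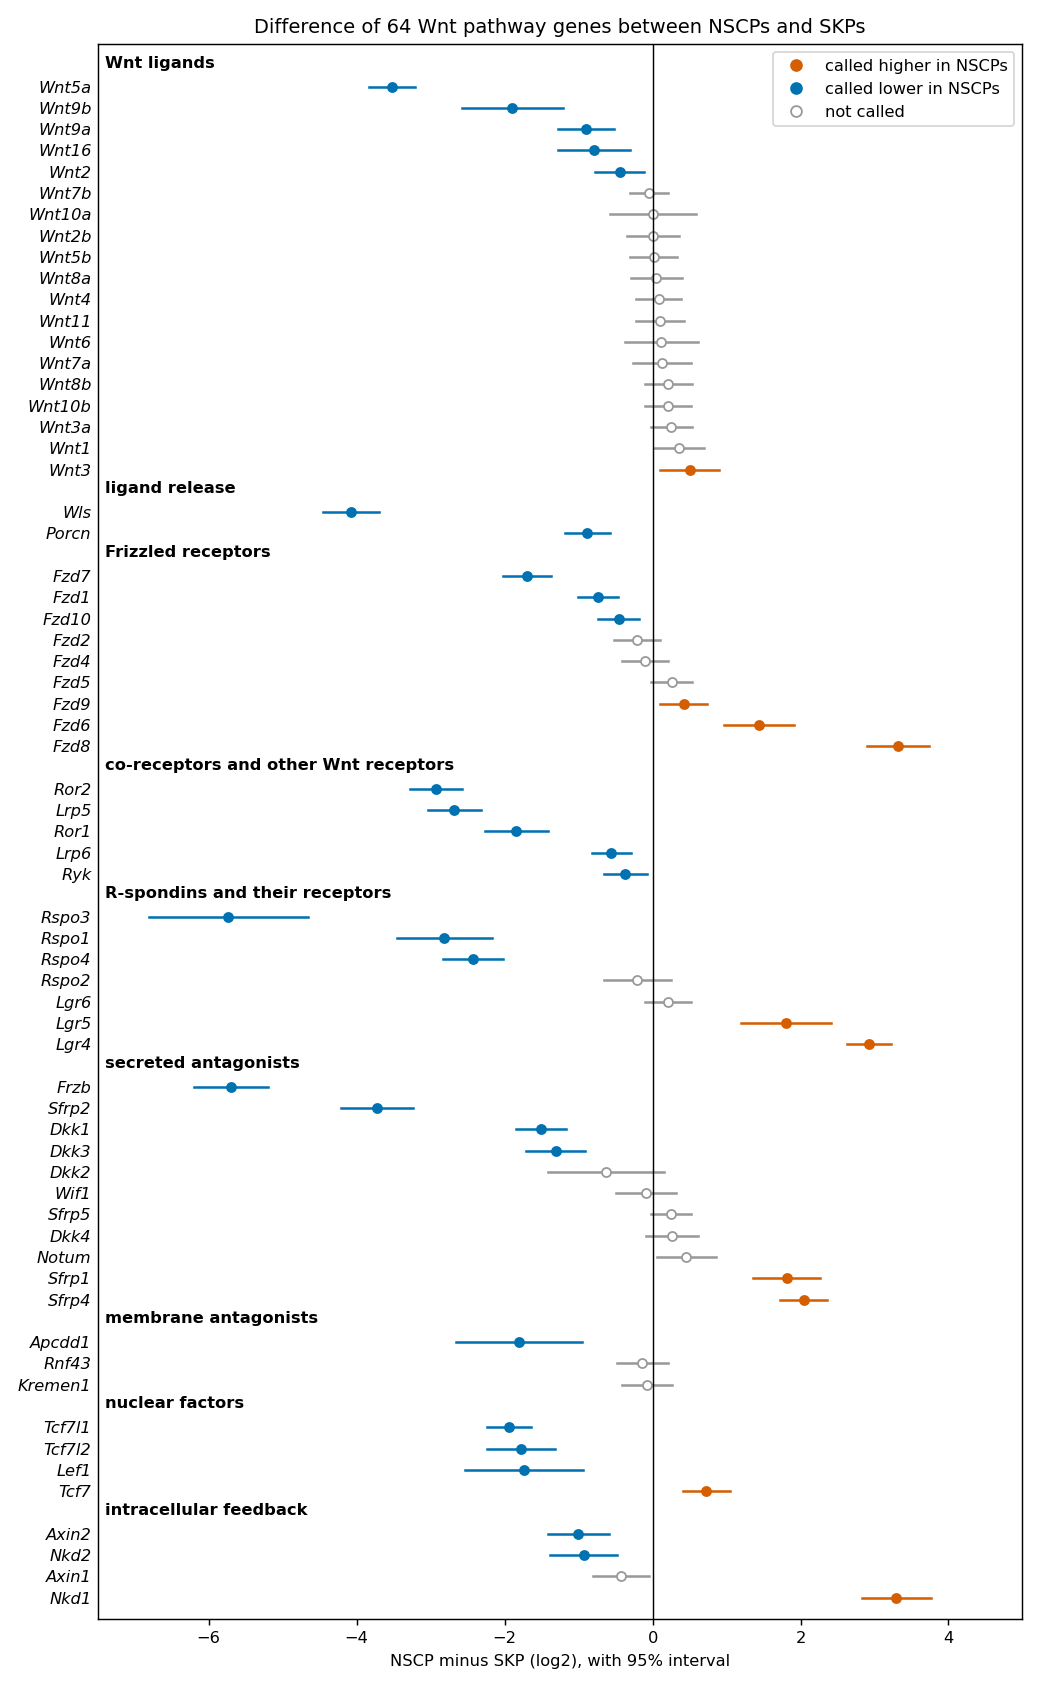
Difference between NSCPs and SKPs (NSCP minus SKP, log2, horizontal axis) for each of the 64 members, grouped by role. Points are the fitted difference, lines its 95% interval, and colours show the 28 members called lower, the 10 called higher and the 26 not called.

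Among the Wnt ligands, 5 of 19 were lower in NSCPs, 1 was higher and 13 were not called. The share called was 31.6%, below the 43.7% of all genes. The median size of a difference was 0.21, against 0.36 over all genes. Wnt5a, the ligand best known for signalling without β-catenin through Ror2, had by far the widest gap. Its values were 10.04, 9.74 and 9.96 in SKP replicates 1, 2 and 3 and 6.24, 6.47 and 6.46 in NSCP replicates 1, 2 and 3 (the same order is kept below), an 11.5-fold difference of -3.52 (SE 0.13, adjusted p = 2.26e-07). Wnt9b, a ligand known from kidney and face development, read 6.35, 7.52 and 7.59 in SKPs and 5.30, 5.21 and 5.26 in NSCPs. The NSCP mean of Wnt9b lay within background, the lowest SKP array was replicate 1, and the difference was -1.90 (SE 0.30, adjusted p = 9.80e-04). Its close relative Wnt9a moved the same way, with 6.52, 6.64 and 6.81 in SKPs and 5.77, 5.47 and 6.04 in NSCPs, a difference of -0.90 (SE 0.17, adjusted p = 0.00247).

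The remaining called ligands changed by smaller steps, and each call was lost without at least 1 of the arrays. Wnt16, a ligand of bone and joint tissue, was at 7.0, 6.55 and 6.37 in SKPs and 5.50, 5.90 and 6.14 in NSCPs, a difference of -0.79 (SE 0.21, adjusted p = 0.0155). Without NSCP replicate 1 its adjusted p was 0.0523, and with array weights its difference was -0.49. Wnt3, a ligand of the β-catenin branch, was the member called higher, with 5.16, 5.36 and 5.21 in SKPs and 5.37, 5.99 and 5.87 in NSCPs. Its SKP mean was within background, the difference was 0.50 (SE 0.17, adjusted p = 0.0444), and the groups were separated by a narrow gap. The call on Wnt3 was lost whichever SKP replicate was left out and without NSCP replicate 2 or 3 (adjusted p 0.0506 to 0.131). Wnt2 differed by -0.44 (SE 0.15, adjusted p = 0.0373), and that call was lost without NSCP replicate 1 or 3 and without SKP replicate 2 or 3 (adjusted p 0.0931 to 0.129), and under both scalings tried, with arrays centred on one median (0.0566) or quantile normalized again (0.0661).

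The 13 ligands that were not called had differences from -0.05 to 0.35, and the bounds of their 95% intervals ran from -0.58 to 0.69. They include Wnt1 and Wnt3a, classical β-catenin ligands, at 0.35 (95% interval 0.01 to 0.69, adjusted p = 0.0854) and 0.25 (95% interval -0.03 to 0.53, adjusted p = 0.128). Wnt5b, the closest relative of Wnt5a, differed by 0.02 (95% interval -0.30 to 0.33, adjusted p = 0.937), and its values overlapped between the groups. Wnt6 and Wnt10a, expressed in embryonic skin, had means above background in both groups and differences of 0.12 (95% interval -0.38 to 0.62, adjusted p = 0.680) and 0.00 (95% interval -0.58 to 0.58, adjusted p = 0.999). Wnt2b, Wnt7a, Wnt7b, Wnt8a and Wnt8b were within background in both groups, and Wnt1 and Wnt10b in SKPs only. Wnt3a lay near background, with means of 5.39 in SKPs and 5.65 in NSCPs.

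Both genes that act on every Wnt ligand before its release were lower in NSCPs. Wls, the carrier that takes Wnt proteins to the cell surface, was at 11.81, 11.85 and 12.08 in SKPs and 8.14, 7.59 and 7.78 in NSCPs. The arrays of a group lay within 0.55 of each other and the groups were 16.9-fold apart (-4.08, SE 0.16, adjusted p = 3.08e-07). Porcn, the acyltransferase that attaches the lipid, changed by a smaller step, with 8.02, 7.89 and 8.19 in SKPs and 7.02, 7.28 and 7.15 in NSCPs, a difference of -0.88 (SE 0.13, adjusted p = 7.59e-04).

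**Figure D2:**
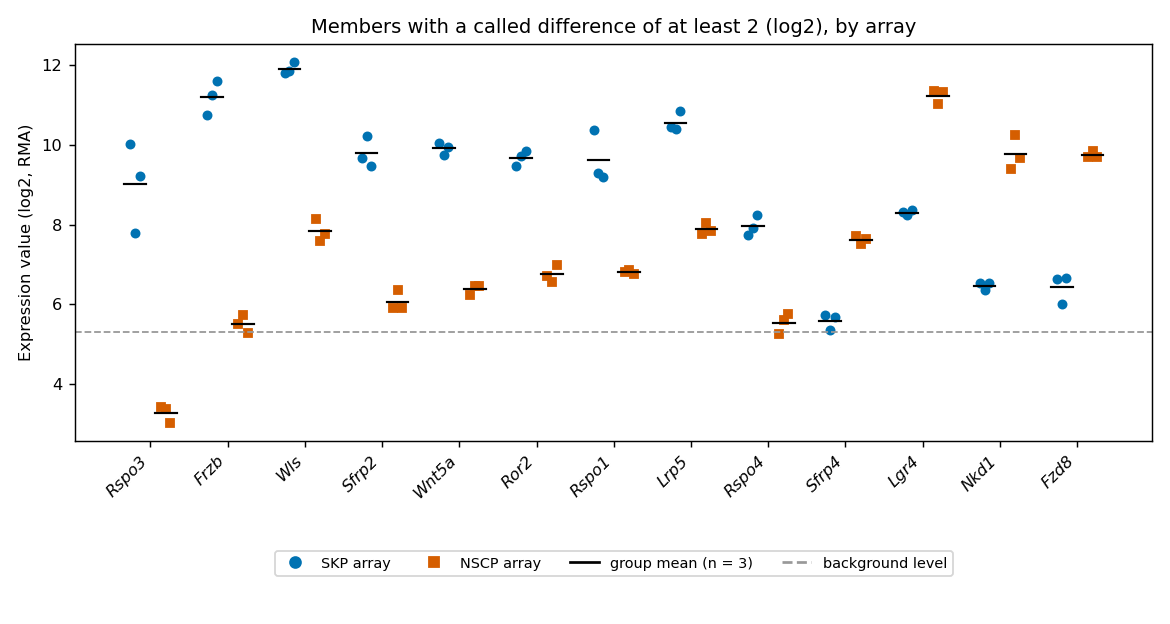
Expression values (log2, vertical axis) of the 13 members with a called difference of at least 2 on the log2 scale. Circles are SKP arrays, squares NSCP arrays, bars the means of 3 arrays, and the dashed line is the background level of 5.32. In all 13 the groups are apart. The NSCP arrays of Rspo3 lie below the line, as do Frzb in NSCP replicate 3 and Rspo4 in NSCP replicate 1.

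Frizzled receptors went both ways, with 3 of 9 higher, 3 lower and 3 not called in NSCPs (66.7% called, against 43.7% of all genes). Fzd8 stood out on the higher side. Its values were 6.62, 6.01 and 6.67 in SKPs and 9.70, 9.86 and 9.71 in NSCPs, and all NSCP arrays were about 3 units above the SKP arrays, a 9.99-fold difference of 3.32 (SE 0.18, adjusted p = 1.86e-06). Fzd6, a Frizzled of planar cell polarity in skin and hair, rose from near background, with 4.90, 5.71 and 5.42 in SKPs and 6.92, 6.84 and 6.57 in NSCPs (1.44, SE 0.21, adjusted p = 6.24e-04). In the opposite direction Fzd7 was at 7.94, 8.06 and 8.32 in SKPs and 6.27, 6.43 and 6.53 in NSCPs, a difference of -1.70 (SE 0.14, adjusted p = 2.28e-05). Its close relative Fzd1 followed with 7.43, 7.36 and 7.54 in SKPs and 6.80, 6.64 and 6.67 in NSCPs (-0.74, SE 0.12, adjusted p = 0.00102).

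Fzd10 fell by a small step, with 6.63, 6.59 and 6.62 in SKPs and 6.14, 6.30 and 6.02 in NSCPs (-0.46, SE 0.12, adjusted p = 0.0142). Without NSCP replicate 3 or SKP replicate 3 that call was lost (adjusted p 0.0603 and 0.0524). It was also lost with arrays quantile normalized again, where the difference was -0.26 (adjusted p 0.107). Fzd9, called higher at 0.42 (SE 0.14, adjusted p = 0.0378), was within background in both groups and lost its call without NSCP replicate 1 or 2 and without SKP replicate 1 or 3 (adjusted p 0.0663 to 0.146). Fzd2, Fzd4 and Fzd5, with differences of -0.21 (95% interval -0.52 to 0.10, adjusted p = 0.242), -0.10 (95% interval -0.41 to 0.21, adjusted p = 0.587) and 0.26 (95% interval -0.02 to 0.53, adjusted p = 0.114), were not called and were above background in both groups.

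All 5 co-receptors and other Wnt receptors were lower in NSCPs, and the sizes separated them. Ror2, the receptor tyrosine kinase that binds Wnt5a, was at 9.48, 9.73 and 9.84 in SKPs and 6.72, 6.56 and 6.99 in NSCPs and differed by -2.93 (SE 0.16, adjusted p = 1.48e-06). Ror1, its relative, was at 9.38, 10.05 and 9.47 in SKPs and 7.91, 7.64 and 7.83 in NSCPs (-1.84, SE 0.19, adjusted p = 7.53e-05). Ror1, Ror2 and the ligand Wnt5a were therefore all lower in NSCPs, with no overlap between groups, whereas Wnt5b, as given above, was not called.

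The co-receptors of the β-catenin branch are Lrp5 and Lrp6. Lrp5 read 10.44, 10.39 and 10.86 in SKPs and 7.77, 8.04 and 7.85 in NSCPs, a 6.40-fold deficit in NSCPs (-2.68, SE 0.16, adjusted p = 2.55e-06). Lrp6 read 10.49, 10.37 and 10.43 in SKPs and 9.93, 9.76 and 9.93 in NSCPs, a 1.47-fold deficit (-0.56, SE 0.12, adjusted p = 0.00458). Ryk, a Wnt receptor without an active kinase, was at 10.39, 10.33 and 10.54 in SKPs and 10.17, 9.93 and 10.07 in NSCPs (-0.37, SE 0.12, adjusted p = 0.0419). The call on Ryk was lost whichever SKP replicate was left out and without NSCP replicate 2 or 3 (adjusted p 0.0521 to 0.155), and with the replicate number as a block (adjusted p 0.0560) and with arrays centred on one median (adjusted p 0.0786).

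R-spondins and their receptors moved in opposite directions. Of the 4 ligands 3 were lower in NSCPs. Rspo3 was at 10.01, 7.79 and 9.23 in SKPs and 3.43, 3.38 and 3.03 in NSCPs, so that every NSCP array was within background and the difference of -5.73 (SE 0.47, adjusted p = 1.99e-05) rests on a background level. Without SKP replicate 2, the lowest of its group, it was -6.35. Rspo1 was at 10.38, 9.30 and 9.21 in SKPs and 6.81, 6.86 and 6.76 in NSCPs, with SKP replicate 1 about 1 unit above the others (-2.82, SE 0.28, adjusted p = 6.59e-05). Rspo4, known for its part in nail formation, was at 7.75, 7.93 and 8.24 in SKPs and 5.25, 5.61 and 5.76 in NSCPs (-2.43, SE 0.18, adjusted p = 1.04e-05). The NSCP values of Rspo4 were close to the background level, with replicate 1 below it. Rspo2 was not called (-0.21, 95% interval -0.66 to 0.25, adjusted p = 0.427), and its NSCP mean was within background.

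The receptors of these ligands were higher in NSCPs or not called. Lgr4, the broadly expressed R-spondin receptor, was at 8.31, 8.23 and 8.38 in SKPs and 11.35, 11.03 and 11.32 in NSCPs, 7.61-fold higher (2.93, SE 0.13, adjusted p = 5.44e-07). Lgr5, known as a stem cell marker of gut and hair follicle, was at 5.41, 6.50 and 6.46 in SKPs and 7.97, 7.96 and 7.86 in NSCPs (1.80, SE 0.27, adjusted p = 7.11e-04). The NSCP arrays of Lgr5 spanned 0.115, while SKP replicate 1 was about 1 unit below the other SKP arrays. Lgr6 was within background in both groups and was not called (0.21, 95% interval -0.11 to 0.52, adjusted p = 0.257).

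Secreted antagonists also went both ways, with 4 of 11 lower, 2 higher and 5 not called. The share called was 54.5%, against 43.7% of all genes and 54.3% of those above background in a group. The Sfrp family, which binds Wnt proteins through a Frizzled-like domain, was itself divided. Frzb, also known as sFRP3, was at 10.76, 11.26 and 11.61 in SKPs and 5.50, 5.74 and 5.29 in NSCPs. The NSCP values were close to the background level, and the difference was -5.70 (SE 0.22, adjusted p = 2.44e-07). Sfrp2 was at 9.68, 10.22 and 9.48 in SKPs and 5.92, 6.37 and 5.92 in NSCPs, 13.2-fold lower in NSCPs (-3.72, SE 0.21, adjusted p = 2.26e-06). For both genes every SKP array was above every NSCP array.

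Sfrp1 and Sfrp4 had the opposite pattern. Sfrp1 was at 10.57, 9.76 and 9.98 in SKPs and 11.93, 11.88 and 11.93 in NSCPs, 3.51-fold higher in NSCPs and above background in both groups (1.81, SE 0.20, adjusted p = 1.16e-04). Sfrp4 was at 5.73, 5.35 and 5.67 in SKPs and 7.71, 7.52 and 7.64 in NSCPs, a difference of 2.04 (SE 0.14, adjusted p = 6.66e-06). The other family member, Sfrp5, was not called (0.25, 95% interval -0.02 to 0.52, adjusted p = 0.114). Of the 5 Sfrp family genes, Frzb included, 2 were thus lower, 2 higher and 1 not called.

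Dkk1, the prototype of the Dickkopf proteins, blocks Lrp5 and Lrp6 rather than the Wnt ligand. Its values were 6.73, 6.89 and 7.06 in SKPs and 5.46, 5.55 and 5.16 in NSCPs (-1.51, SE 0.15, adjusted p = 6.24e-05). Dkk3, a divergent member, was lower too (-1.31, SE 0.17, adjusted p = 3.71e-04), with means of 9.93 ± 0.31 in SKPs and 8.61 ± 0.15 in NSCPs (SD over n = 3 arrays). Dkk2 spread from 5.07 to 6.65 over the SKP arrays and was not called (-0.63, 95% interval -1.42 to 0.15, adjusted p = 0.168), nor was Dkk4 (0.26, 95% interval -0.09 to 0.61, adjusted p = 0.204). Wif1, which binds Wnt proteins outside the cell, differed by -0.09 (95% interval -0.50 to 0.32, adjusted p = 0.711), and Notum, which removes their lipid, by 0.46 (95% interval 0.06 to 0.86, adjusted p = 0.0634), and neither was called. The SKP mean of Notum and the NSCP mean of Dkk2 were within background.

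Of the antagonists held in the membrane, Apcdd1 was lower and the other 2 were not called. Apcdd1, which binds Wnt and Lrp5 proteins and is known from a hereditary hair loss, was at 8.40, 6.69 and 7.71 in SKPs and 5.89, 6.02 and 5.49 in NSCPs (-1.80, SE 0.37, adjusted p = 0.00460). Its SKP arrays spanned 1.71, nearly as wide as the difference itself. Kremen1, a partner of Dickkopf proteins, had means of 9.09 ± 0.19 in SKPs and 9.01 ± 0.16 in NSCPs (SD over n = 3 arrays) and differed by -0.08 (95% interval -0.41 to 0.26, adjusted p = 0.70). Rnf43, a ubiquitin ligase that clears Frizzled receptors, was within background in both groups (-0.14, 95% interval -0.48 to 0.20, adjusted p = 0.480).

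Nuclear factors of the pathway were all called, 3 lower and 1 higher in NSCPs. Tcf7l1, which acts mostly as a repressor, was at 10.28, 10.47 and 10.34 in SKPs and 8.55, 8.49 and 8.24 in NSCPs (-1.94, SE 0.13, adjusted p = 6.23e-06). Tcf7l2 was at 9.83, 9.20 and 9.65 in SKPs and 8.09, 7.68 and 7.57 in NSCPs (-1.78, SE 0.20, adjusted p = 1.36e-04). Lef1, an activator that marks the dermal papilla, was at 8.73, 7.16 and 8.39 in SKPs and 6.20, 6.39 and 6.49 in NSCPs, with SKP replicate 2 more than 1 unit below the other SKP arrays but still above all NSCP arrays (-1.74, SE 0.35, adjusted p = 0.00394). Tcf7 alone was higher, at 7.82, 7.77 and 8.14 in SKPs and 8.64, 8.76 and 8.52 in NSCPs (0.73, SE 0.14, adjusted p = 0.00319).

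The intracellular feedback genes did not move together, and the promoters of 2 of them are shown because both are textbook targets of Tcf and Lef factors. The motif CTTTGAT, a core of the Tcf and Lef binding site, was searched on both strands of RefSeq promoter windows (GRCr8; 250 bases before to 50 after a start site), which were given for 46 of the 64 members. It was found in 3 of the 46 (6.52%), Axin2, Nkd1 and Tcf7, against 1084 of all 27457 genes with a window (3.95%) and 3.63% of all 33469 windows. In all 3 it lies on the gene's strand, with its first base 132, 141 and 4 bases before the listed start, and the motif is in capitals below. The start listed for Axin2 lies inside the full span of the gene. The stretches are the 250 bases before the start for Axin2 (chr10:94398535-94398784, + strand) and Nkd1 (chr19:34722847-34723096, - strand), and 80 bases around the start for Tcf7 (chr10:36954260-36954339, - strand).
Axin2: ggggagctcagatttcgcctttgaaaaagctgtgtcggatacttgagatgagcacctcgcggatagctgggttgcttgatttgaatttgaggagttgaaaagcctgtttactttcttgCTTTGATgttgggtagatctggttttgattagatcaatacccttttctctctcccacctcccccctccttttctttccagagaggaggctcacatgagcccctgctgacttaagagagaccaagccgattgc
Nkd1: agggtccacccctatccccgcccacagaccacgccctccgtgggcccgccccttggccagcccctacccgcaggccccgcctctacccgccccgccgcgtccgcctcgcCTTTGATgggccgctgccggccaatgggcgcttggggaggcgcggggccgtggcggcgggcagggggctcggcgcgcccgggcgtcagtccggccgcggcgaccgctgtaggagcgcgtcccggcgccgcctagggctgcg
Tcf7: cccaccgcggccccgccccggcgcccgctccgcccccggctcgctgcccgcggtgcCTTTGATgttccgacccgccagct
A match of letters is a description and does not show binding in these cells.

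These genes with a shared motif were called in different directions. Axin2, a scaffold of the β-catenin destruction complex that the pathway itself induces, was at 8.19, 7.72 and 8.20 in SKPs and 7.14, 7.22 and 6.76 in NSCPs, a 2.00-fold deficit in NSCPs (-1.0, SE 0.18, adjusted p = 0.00219). Nkd1, which binds Dishevelled and dampens the signal, was at 6.54, 6.36 and 6.53 in SKPs and 9.40, 10.24 and 9.67 in NSCPs, 9.82-fold higher in NSCPs (3.30, SE 0.21, adjusted p = 3.91e-06). Tcf7 was higher as well, as given above. Nkd2, the relative of Nkd1, was at 9.82, 9.07 and 9.47 in SKPs and 8.39, 8.73 and 8.43 in NSCPs and so moved the other way (-0.93, SE 0.20, adjusted p = 0.00516). Axin1, the constitutive relative of Axin2, was not called (-0.43, 95% interval -0.81 to -0.05, adjusted p = 0.0677).

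Some members varied widely among the SKP arrays. Of the 52 members with an SKP mean above background 8 had an SD over 0.5 among the SKP arrays (15.4%, against 5.46% of the 12403 genes above background there), and of the 52 members above background in NSCPs 0 had one, the highest being 0.43 for Nkd1. In 5 of the 8, Rspo3, Apcdd1, Lef1, Dkk2 and Wnt10a, SKP replicate 2 was the lowest array. It was also the lowest in 69.7% of all 677 genes above background with such an SD, in 7 of 7 such macrophage and leukocyte markers, in 2 of 2 such adipocyte markers and in the 1 such keratinocyte marker, Cdh1 (7.10, 5.62 and 6.69 in SKP replicates 1, 2 and 3). The 1 such dermal mesenchyme marker and the 1 such perineurial marker were lowest in SKP replicate 1. Wnt9b and Lgr5 ran differently, with SKP replicate 1 the lowest, and for Rspo1 replicates 2 and 3 were both low. The SD limit was chosen after the values were seen. The part of the other cell types in this spread was not tested. Without SKP replicate 1, which had the highest macrophage marker mean, 9 members were called higher and 27 lower (56.2% called), and 36.8% of all genes were called. SKP replicates 2 and 3 still had macrophage marker means of 10.19 and 10.53, against 5.05 to 5.19 in NSCPs. Leaving out replicate 1 therefore does not remove the group difference in these markers.

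**Figure D3:**
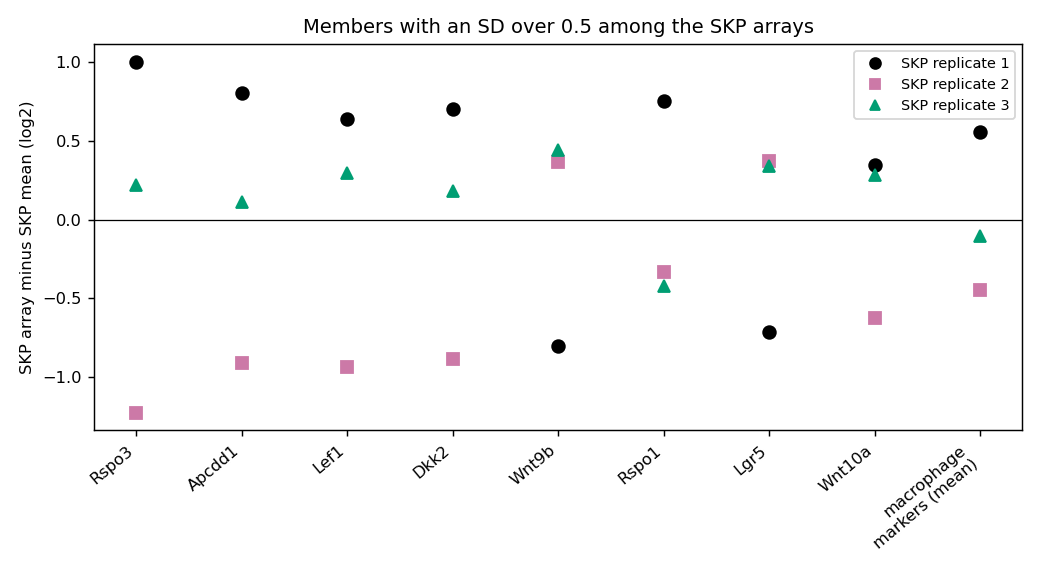
Each SKP array minus the mean of the 3 SKP arrays (log2, vertical axis) for the 8 members with an SD over 0.5 and, at the right, for the mean of the 12 macrophage and leukocyte markers. SKP replicate 2 (squares) is the lowest for Rspo3, Apcdd1, Lef1, Dkk2, Wnt10a and the macrophage marker mean.

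Other genes of the pathway were taken from 5 lists, chosen with earlier results of these data known, of which 73 of 77 genes were measured. Of these 21 were higher, 26 lower and 26 not called, with a median difference of -0.12. The share called was 64.4%, against 43.7% of all genes and 54.3% of all genes above background in a group. Both group means were within background for 2 of the 73. Extracellular and membrane regulators had 8 of 13 lower and 2 higher. Sostdc1, which blocks BMP and Wnt proteins outside the cell, was at 5.74, 6.29 and 6.22 in SKPs and 11.64, 11.76 and 11.52 in NSCPs (5.56, SE 0.17, adjusted p = 7.76e-08). Draxin, a secreted guidance protein that also antagonises Wnt, was at 9.87, 10.06 and 10.31 in SKPs and 6.04, 6.09 and 5.96 in NSCPs (-4.05, SE 0.14, adjusted p = 1.35e-07). Sulf1 and Sulf2, which trim the sulfates of heparan chains that hold Wnt proteins, were lower by differences of -3.70 and -2.72, the NSCP mean of Sulf1 being within background.

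Planar cell polarity genes, which orient cells within a sheet, were called in 11 of 11 cases, 6 lower and 5 higher. Of all genes 43.7% were called, and 54.3% of those above background in a group. Celsr3, 1 of the 5 higher, had both means within background (4.30 in SKPs and 5.25 in NSCPs). Celsr2, a cadherin of the polarity complex, was 15.7-fold higher in NSCPs, with 5.25, 5.64 and 5.26 in SKPs and 9.19, 9.55 and 9.32 in NSCPs (3.97, SE 0.16, adjusted p = 2.57e-07). The giant cadherin genes Fat4 (-3.75) and Dchs1 (-3.56) and the cytoplasmic component gene Prickle1 (-3.38) were lower, Dchs1 with an NSCP mean within background.

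Differences in the cytoplasmic machinery were below 2-fold in all but 1 gene, Apc2. Of 19 genes 5 were higher and 6 lower (57.9% called, against 43.7% of all genes and 54.3% of those above background in a group). Apc2, a relative of the tumour suppressor Apc, was higher by 1.75. Dact3 (-0.93), Tnks (0.74) and Tnks2 (-0.73), the last pair encoding enzymes that mark Axin for destruction, changed by less than 2-fold. Ctnnb1, which encodes β-catenin itself, was at 11.97, 11.87 and 12.05 in SKPs and 11.62, 11.77 and 11.79 in NSCPs and was not called (-0.24, 95% interval -0.51 to 0.03, adjusted p = 0.135). Nuclear co-factors had 2 of 12 higher and 3 lower, and their share called, 41.7%, was near the 43.7% of all genes. The co-activator genes Bcl9l (-1.34) and Pygo1 (-0.72) were lower, and Cby1 (0.98), whose product binds β-catenin, and the co-repressor gene Tle1 (0.93) were higher.

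Transcriptional targets outside the members had 7 of 18 higher, 3 lower and 8 not called in NSCPs. The share called was 55.6%, against 43.7% of all genes, and was close to the 54.3% of genes above background in a group. Ccn4, a matricellular protein gene first found as a Wnt target, was at 11.52, 11.92 and 11.95 in SKPs and 6.75, 7.01 and 7.47 in NSCPs, 26.3-fold lower in NSCPs (-4.72, SE 0.20, adjusted p = 4.36e-07). Twist1 was lower by a difference of -1.33, with its NSCP mean within background. Mycn (2.55, SKP mean within background) and Tnfrsf19, a receptor of the TNF family (2.06), were higher. Axin2 and Ccn4 were thus lower while Nkd1, Mycn and Tnfrsf19 were higher in the same arrays. Among the other pathway genes with a RefSeq window CTTTGAT was found in 2 of 57 (3.51%), Sp5 and Cdx1, both named after their values were seen. Sp5, a feedback target, was higher (0.52, SE 0.12, adjusted p = 0.00900), with its SKP mean within background. Cdx1, a homeobox gene, was not called (0.06, 95% interval -0.21 to 0.34, adjusted p = 0.688), and its groups overlapped.

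**Figure D4:**
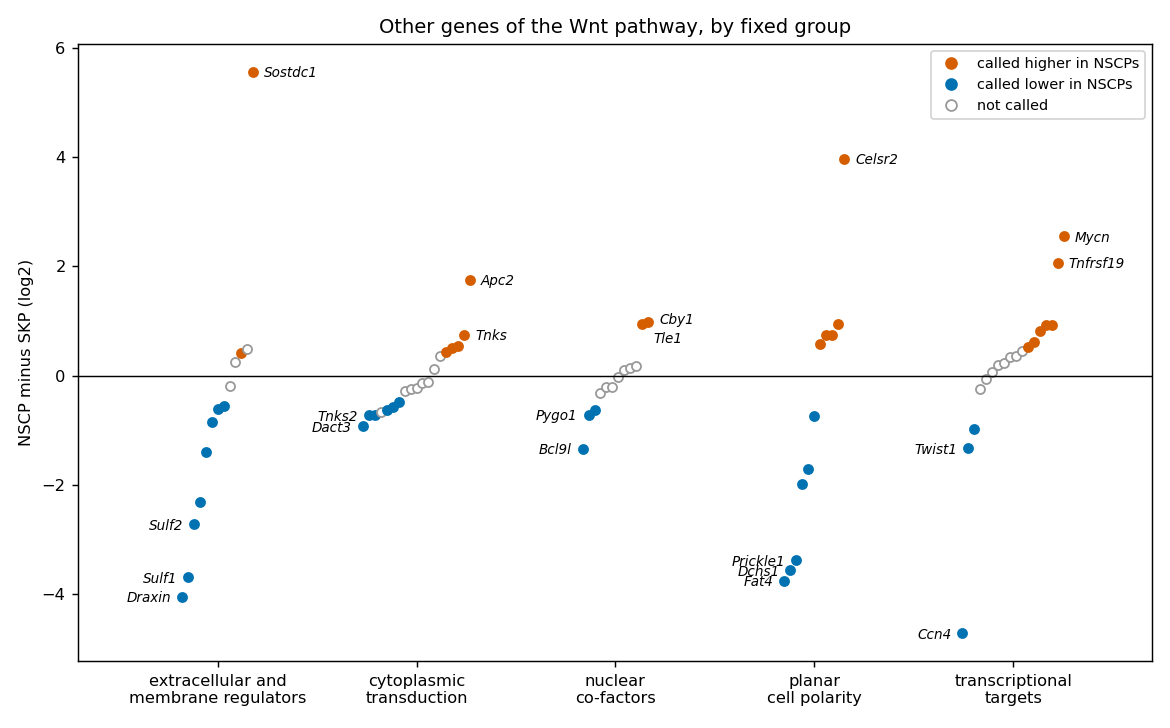
Difference between NSCPs and SKPs (NSCP minus SKP, log2, vertical axis) for the 73 measured genes of the 5 further lists of the pathway. Each point is 1 gene, coloured by call, and up to 4 called genes per list with the largest difference are labelled, with Sostdc1 the highest at 5.56 and Ccn4 the lowest at -4.72.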

How the data were processed

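Per the submitters' processing notes, which give no versions, the authors made the deposited log2 expression values with RMA in the package oligo, which corrects background, applies quantile normalization and summarises probes into probe sets. Quantile normalization gives the arrays nearly equal distributions, so a shift of all genes in a group would not be seen. The labels name no genome build and no scan dates. Of 36685 probe sets 18511 had 1 gene symbol. The probe set with the highest mean was kept for each of 18166 genes, and each of the 64 members had a single one. Values were fitted without a filter with lmFit and eBayes of limma 3.58.1 under R 4.3.3, with group as the only term and 2-sided tests. The 95% intervals are not adjusted for multiple tests. With 3 arrays a group, their number limits the precision. The code was tested on simulated data.

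Members and lists were chosen with earlier results of these data known. Values by array are given for up to 5 called members per role with the largest difference and all called ones of at least 2. Up to 4 called genes per further list are named; others were named after their values were seen. Probes of relatives may share transcripts. Alternatives were arrays left out, the replicate number as a block, 2 renewed scalings, a background filter, the mean of probe sets, other priors, array weights, limma's treat and a threshold of 0.01. Promoters are RefSeq's (GRCr8). Figures used matplotlib 3.10.9 under Python 3.11.15.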

Additional observations from a re-analysis of the deposited data

How the results depend on the processing

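Of the 38 called members, 32 kept their direction and call under each array left out, the replicate block, both scalings, array weights, the trended prior and the mean of probe sets, and, where tested, the background filter. The other 6 (Fzd9, Fzd10, Ryk, Wnt2, Wnt3 and Wnt16) lost the call in at least 1 of these settings, 0 changed sign, and the same 32 passed an adjusted p under 0.01. Of the members not called, 8 gained a call in at least 1 of these settings: Notum and Wnt1 in 3 each, Axin1, Dkk2 and Dkk4 in 2, and Fzd5, Wnt3a and Wnt10b in 1. With an array left out 8 to 10 members were higher and 25 to 28 lower, and 6341 to 7513 of all genes were called against 7945. With limma's treat, which asks for more than a 2-fold change, 5 members were higher and 14 lower, 5 and 11 of the other pathway genes, and 1758 of all genes. With array weights 15 members were higher and 30 lower (70.3% called), and 10426 of all genes were called (57.4%). The labels name no pairing of the samples by replicate number. Same-numbered arrays' deviations from their group means correlated at 0.0372, 0.0501 and 0.0283, and each array correlated best with its own number. Whether same-numbered arrays belong together cannot be told from these low values. With the replicate block 10 members were higher and 27 lower, and 7681 of all genes were called. Of all called members, Rspo3 moved most (-6.35 to -5.23).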
